A study of Mus musculus with 2 samples.

Results

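Immediate early genes are switched on within minutes of a stimulus without new protein synthesis, and 10 of them were followed here through every cell type of a mouse kidney data set: Fos, Fosb, Jun, Junb, Jund, Egr1, Atf3, Ier2, Ier3 and Cyr61. The genes were chosen by name, with earlier results of these data known, and all 10 were among the 15169 genes of the table. RNA of single kidney cells was sequenced in 2 libraries from wild-type C57BL/6 mice aged 9 weeks. The control library came from a normal control, and the other, called IRI here, from unilateral ischaemia-reperfusion injury with removal of the opposite kidney. No kidney removal is named for the control, so effects of the injury cannot be told apart from those of living with 1 kidney. The labels give no time after injury and no number of mice per library. The submitters' annotation sorted the 11759 cells into 18 cell types. With 1 library per group no test was possible: each interval below is a 95% interval for counting error only, and says nothing of the spread between animals.

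The 10 genes have different roles in 1 response. Fos and Fosb form the transcription factor AP-1 with Jun, Junb or Jund, and kinase cascades, serum response factor and CREB switch their genes on. Egr1 is a zinc finger factor, Atf3 a stress-induced factor of the same leucine zipper class as Fos and Jun, Ier2 a nuclear protein of the early response, Ier3 a small survival-associated protein induced by NF-kB, and Cyr61 (also named Ccn1) a secreted matrix protein known as a target of YAP and TEAD. In the kidney these genes are known to respond to ischaemia. They are also induced by the enzymatic dissociation used to make single cells. One tissue protocol, a digestion of 25 min at 37 °C, is given for both libraries (its text speaks of injured kidneys only), and its part in the levels was not tested.

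The promoters of 5 members are shown because 4 of them (Fos, Fosb, Cyr61 and Atf3) had the highest IRI-to-control ratios in the S1 segment of the proximal tubule, and the fifth, Jun, was lower in IRI in the S3 segment. Each line holds the 150 bases before the transcription start in RefSeq, build GRCm38.p6, 5′ to 3′ on the gene's strand, with matches to the searched motifs in capitals. They lie at chr12:85473740-85473889 (Fos, + strand), chr7:19310046-19310195 (Fosb, - strand), chr3:145649986-145650135 (Cyr61, - strand), chr1:191183334-191183483 (Atf3, - strand) and chr4:95052223-95052372 (Jun, - strand).
Fos: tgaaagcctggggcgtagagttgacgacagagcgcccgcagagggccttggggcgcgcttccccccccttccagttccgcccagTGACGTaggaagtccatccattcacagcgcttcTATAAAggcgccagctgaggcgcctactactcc
Fosb: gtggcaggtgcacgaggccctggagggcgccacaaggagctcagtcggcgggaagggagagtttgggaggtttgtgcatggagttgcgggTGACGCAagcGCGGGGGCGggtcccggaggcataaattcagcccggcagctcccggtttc
Cyr61: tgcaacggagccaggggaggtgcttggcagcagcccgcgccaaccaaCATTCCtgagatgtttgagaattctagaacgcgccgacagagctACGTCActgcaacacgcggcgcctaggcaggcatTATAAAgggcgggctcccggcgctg
Atf3: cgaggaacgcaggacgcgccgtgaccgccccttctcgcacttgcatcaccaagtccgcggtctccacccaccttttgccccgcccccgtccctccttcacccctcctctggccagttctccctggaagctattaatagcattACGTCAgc
Jun: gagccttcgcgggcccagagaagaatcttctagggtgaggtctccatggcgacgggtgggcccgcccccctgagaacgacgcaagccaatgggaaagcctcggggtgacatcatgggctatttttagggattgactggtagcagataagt

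A search of the 250 bases before the start, on both strands, covered 8 members with an entry and 32851 promoters in all, for 9 motifs. Egr1 and Ier2 had no entry and were not searched. The core of the cAMP response element, TGACGT, was found in Fos at positions -66 to -61, in Cyr61 at -59 to -54 and in Atf3 at -8 to -3, and in 6.47% of all promoters. This core was chosen after the sequences were seen. It is part of the full element TGACGTCA, found in none of the 8 searched members and in 1.55% of promoters. A form 1 base shorter, TGACGCA, stood in Fosb at -60 to -54 (1.75% of promoters), next to an EGR motif, GCGGGGGCG, at -50 to -42 (2.57%). The TEAD motif GGAATG was found only in Cyr61 among the 8, at -103 to -98, and in 12.6% of promoters. A TATA box, TATAAA, stood in Fos at -33 to -28 and in Cyr61 at -25 to -20 (12.4%). None of the 8 searched members held the AP-1 motif (TGACTCA or TGAGTCA, 4.46%), the EGR motif GCGTGGGCG (0.536%) or a CArG box (1.47%) in these bases. A match describes letters in a window and shows no binding.

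Levels are given as UMIs (unique molecular identifiers, 1 per captured RNA molecule) of a gene per 10000 UMIs of the cells, with UMI counts recovered from the deposited values. The control library held 6589 cells with 24169073 UMIs (median 2344 per cell) and the IRI library 5170 cells with 16816996 UMIs (median 1888.5). Of the members 17036 UMIs were found in the control and 23180 in IRI. The libraries shared 55 cell barcodes. Marker genes matched the names of most types, with exceptions that touch the results. Among genes of the thin descending limb (tDL), Slc14a2 (highest mean 0.00682 corrected counts) and Akr1b3 (0.377) were highest in cells annotated as tDL. Aqp1, Bst1 and Fst were highest in vasculature, neutrophils and myofibroblasts. The principal cell gene Aqp2 was highest in tDL cells (0.454), and the proximal tubule gene Kap averaged 70.2 in the control's tDL cells and 11.8 in IRI. In the Ccr2+ macrophages, 32 control cells averaged 1.75 corrected counts of the dendritic cell gene Cd209a and 0 of the macrophage gene C1qb, against 0.180 and 4.06 in 217 IRI cells. Cells named resident macrophages were shallow, with median depths of 599.5 and 799.5 UMIs.

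Among types with at least 20 cells in a library, neutrophils, Cx3cr1+ and Ccr2+ macrophages carried high levels of the 10 genes together, and so did intercalated cells in the control. IRI neutrophils (106 cells) had 102 member UMIs per 10000 (97.0 to 107), the highest of all types, and the control held only 2 neutrophils. Cx3cr1+ macrophages followed in the control at 41.4 (39.6 to 43.2), then intercalated cells of the collecting duct (CD-IC) at 38.9, B cells at 22.4 and Ccr2+ macrophages at 22.3. In IRI, Ccr2+ macrophages came next after neutrophils at 36.3, before cells of the distal convoluted and connecting tubule (DCT/CNT) at 28.4. Smaller sets were 19 IRI Cx3cr1+ macrophages at 31.5 and 16 control cells of proliferating proximal tubule at 24.9. CD-IC was at 12.9 in IRI, and resident macrophages, unlike the other myeloid types, were at 3.24 in the control and 7.03 in IRI. The S2 segment of the proximal tubule lay near the bottom, at 2.5 in the control and 3.02 in IRI. These levels pool the UMIs of a type, and median control cells of at least 1000 UMIs stood in another order. Their median was 8.24 in CD-IC, 16.2 in B cells, 16.9 in T cells and 18.8 in Ccr2+ macrophages. For control Cx3cr1+ macrophages it lay between those of CD-IC and B cells, with an upper quartile of 68.5. In IRI cells of this depth, neutrophils kept the highest median and Ccr2+ macrophages the next. Red blood cells, which should hold little of this RNA, had 1.05 (0.670 to 1.56) over 35 control cells with a median of 6829 UMIs, mostly Jund at 0.827; Fos, Egr1, Atf3, Ier2 and Cyr61 were at 0 UMIs there, which allows up to 0.131 per 10000.

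**Figure D1:**
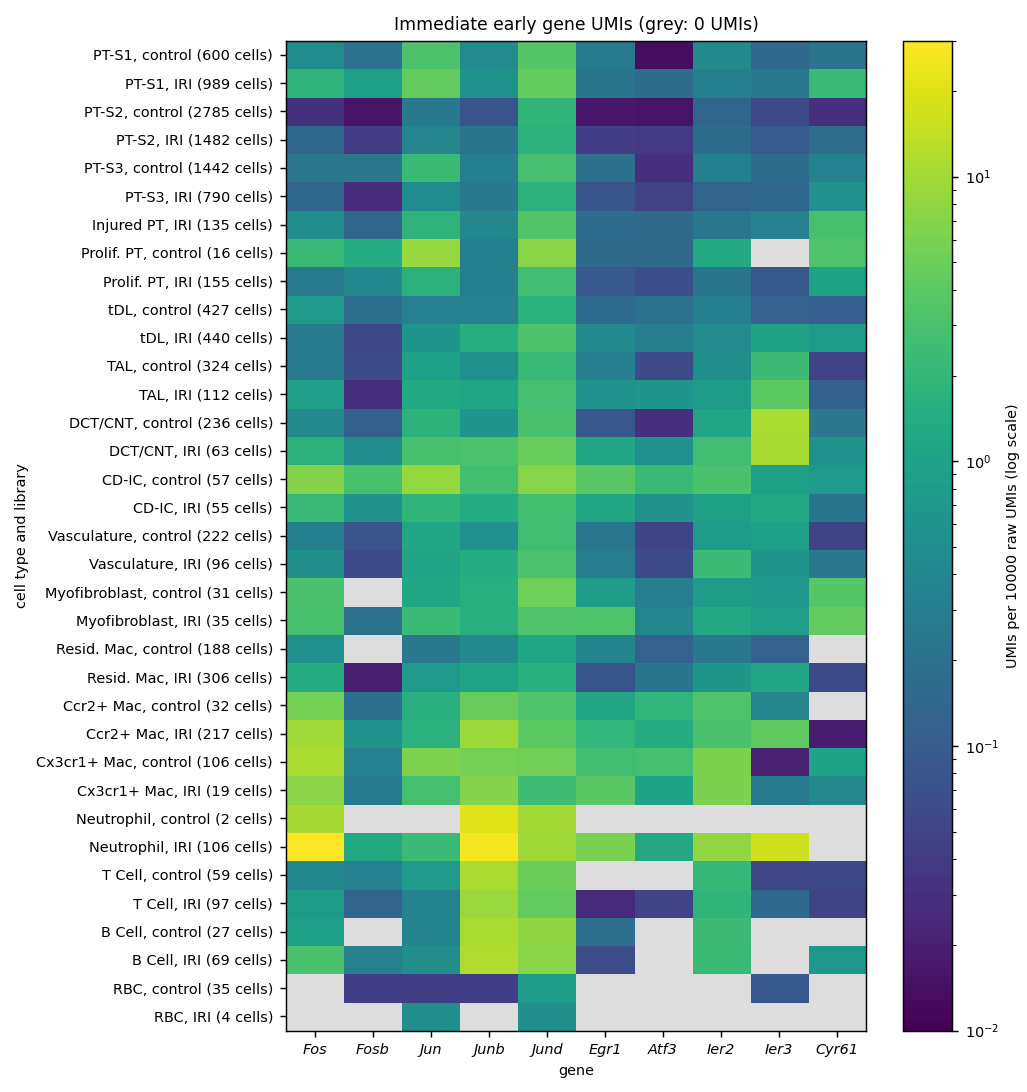
Heat map of the level of each member (columns) in each cell type (rows) of the control and the IRI library, as UMIs per 10000 raw UMIs on a log colour scale. The neutrophil row of IRI holds the highest values, with Fos at 29.2 and Junb at 27.1.

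**Figure D2:**
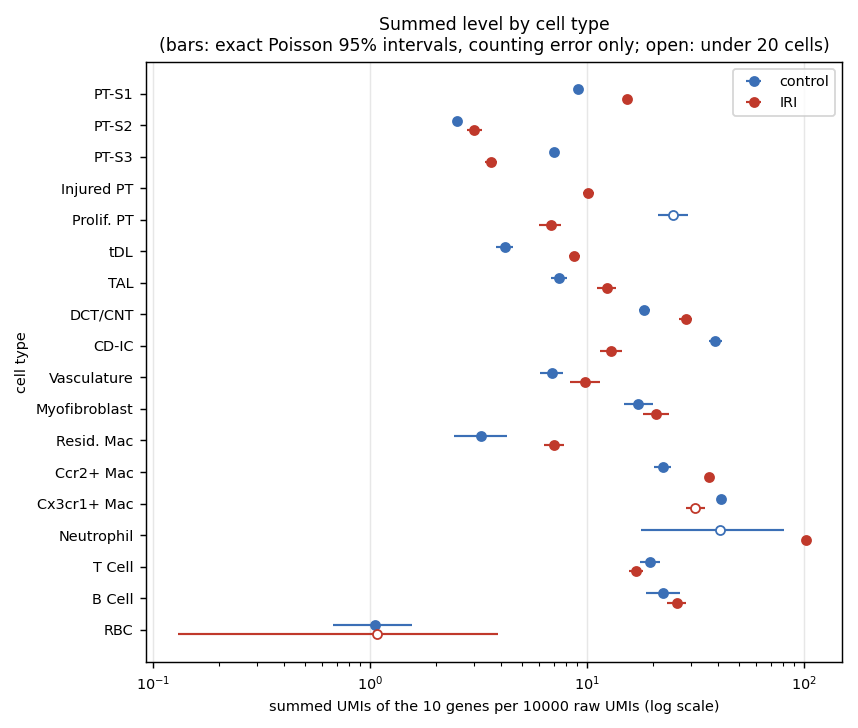
Summed level of the 10 members per cell type in UMIs per 10000 raw UMIs on a log axis, with 95% Poisson intervals for counting error; points are the control (blue) and the IRI library (red), open under 20 cells. CD-IC lies at 38.9 in the control and 12.9 in IRI, whereas PT-S1 lies at 9.06 and 15.3.

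Fos was highest in neutrophils, in Cx3cr1+ and Ccr2+ macrophages and, in the control, in CD-IC. It reached 29.2 UMIs per 10000 in IRI neutrophils (26.6 to 32.0) and 10.9 in control Cx3cr1+ macrophages (10.0 to 11.9). Fos was 5.71 in control and 9.97 in IRI Ccr2+ macrophages, and 0.561 and 1.40 in resident macrophages. In the proximal tubule it was scarce: 0.486 in the control and 1.80 in IRI in S1, 0.0328 and 0.147 in S2, and 0.237 and 0.147 in S3. The S1 ratio of IRI to control was 3.69 (3.10 to 4.43), and the S3 ratio 0.622 (0.427 to 0.887), so the segments stood on opposite sides of 1. Within the submitters' S3 clusters 3 and 4, Fos was 0.0289 and 0.0476 in the control but 0.135 and 0.483 in IRI. These levels came from 1 and 11 control UMIs and 33 and 5 IRI UMIs. Clusters 8 and 21, nearly all control, held 58.7% and 34.6% of the control's Fos UMIs in S3. In CD-IC, Fos was 6.87 in the control and 2.18 in IRI, with intervals of 5.82 to 8.05 and 1.61 to 2.90 that did not overlap. Fosb, its close relative, was low nearly everywhere. It stood at 2.94 in control CD-IC and 0.592 in IRI, at 0.202 and 0.955 in PT-S1 (ratio 4.73, 3.62 to 6.28), and at 0.249 and 0.0271 in PT-S3 (ratio 0.109). Clusters 8 and 21 held 39.9% and 58.0% of the control's Fosb UMIs in S3. In clusters 3 and 4 Fosb was 0.0289 and 0.0130 in the control and 0.0246 and 0.0966 in IRI. These came from 1 and 3 control UMIs and 6 and 1 IRI UMIs.

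The 3 Jun genes spread differently over the cell types. Junb was highest in lymphoid cells and in myeloid cells other than resident macrophages. It was 27.1 UMIs per 10000 in IRI neutrophils, and 10.7 and 11.7 in B cells of control and IRI. Junb was 10.8 and 8.94 in T cells, 4.63 and 9.39 in Ccr2+ macrophages, and 0.437 and 1.07 in resident macrophages. In PT-S1 it was 0.476 and 0.591, a ratio of 1.24 (1.01 to 1.52). Jun had another order, with 8.54 in control CD-IC, 6.40 in control Cx3cr1+ macrophages and 3.19 in control PT-S1. IRI values were 1.91 in CD-IC, 2.77 in Cx3cr1+ macrophages and 4.32 in PT-S1, and in PT-S3 Jun was 0.492 against 2.37, a ratio of 0.208 (0.172 to 0.249). Jund, which is less dependent on stimuli than the other Jun genes, was found at 1.12 or more in each type but red blood cells, up to 9.59 in IRI neutrophils. Its ratios stayed between 0.372 (CD-IC) and 1.96 (tDL) over the 13 types that had 20 or more cells in both libraries.

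Egr1 was highest in IRI neutrophils at 5.94 UMIs per 10000, followed by control CD-IC at 3.88. In IRI CD-IC it was 1.14, while DCT/CNT had 0.0889 in the control and 1.10 in IRI, from 6 and 33 UMIs (ratio 12.3, 5.10 to 36.0). Myofibroblasts had 0.822 and 3.33, and of the 34 IRI UMIs 11 came from 1 cell. Atf3 was most abundant in control Cx3cr1+ macrophages at 2.76 and control CD-IC at 2.26, and their IRI values were 1.04 and 0.592. Tubule cells held little Atf3. In PT-S1 it was 0.0132 in the control and 0.171 in IRI, from 4 and 87 UMIs (ratio 13.0, 4.88 to 48.6), and in the thick ascending limb (TAL) 0.0643 and 0.675, from 5 and 23 UMIs.

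Ier2 was highest in immune cells, with 8.11 UMIs per 10000 in IRI neutrophils and 6.27 and 6.23 in Cx3cr1+ macrophages of control and IRI. In the vasculature it was 0.835 and 2.37 (ratio 2.84, 1.74 to 4.67), and in CD-IC 2.98 and 0.956 (ratio 0.321, 0.186 to 0.531). Ier3 had a distribution of its own: 17.0 in IRI neutrophils, 10.8 and 10.5 in DCT/CNT of control and IRI, and 2.39 and 3.99 in TAL, but 0.0208 in control Cx3cr1+ macrophages, where the other members were high. Ccr2+ macrophages had 0.378 in the control and 4.23 in IRI, from 8 and 696 UMIs (ratio 11.2, 5.65 to 26.0). Ier3 was detected in 6 of 32 control cells and 124 of 217 IRI cells of that type. With the 32 and 216 cells of at least 1000 UMIs each thinned to 1000, it was detected in 4.48% and 23.8%. The 2 libraries' cells of this name differed in kind, as the Cd209a and C1qb values above show, and the part of this in the Ier3 ratio was not tested.

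Among types with at least 20 cells in a library, Cyr61 was highest in stroma and in injured tubule. Myofibroblasts had 3.60 UMIs per 10000 in the control and 4.41 in IRI. Of their 35 control UMIs 20 came from 1 cell, and of the 45 in IRI 14. The 135 cells annotated as injured proximal tubule, all from IRI, had 2.96 (2.64 to 3.3). A smaller set, 16 control cells of proliferating proximal tubule, had 3.35, with 18 of 21 UMIs from 1 cell. PT-S1 was at 0.218 in the control and 2.18 in IRI, with a ratio of 10.0 (7.80 to 13.0); PT-S2 had 0.0294 and 0.177, and PT-S3 0.335 and 0.570. Cyr61 was thus higher in IRI in each of the 3 segments. In neutrophils, where Fos and Junb were highest, 0 Cyr61 UMIs were found in 106 IRI cells, which allows up to 0.186 per 10000. Control Ccr2+ macrophages also had 0, and their IRI counterparts 0.0182.

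For the comparison of the libraries, a member was called higher or lower where the mean depth-corrected count differed at least 2-fold, on the scale of log2 (mean + 0.05), which understates the change of scarce genes. Of 130 pairs of a member and a cell type, 106 had the 10 summed corrected counts asked for; 22 were higher in IRI and 7 lower. Over all genes, 3.01% of 76831 such pairs were called higher and 3.73% lower. Fos was called higher in 5 of 13 types and lower in 1, Junb higher in 3 and lower in 0, and Jun higher in 1 of 12 and lower in 2. Ier3 was called higher in 3 of 11 types and Cyr61 in 2 of 6. The calls gathered in few types, and the directions differed between them.

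**Figure D3:**
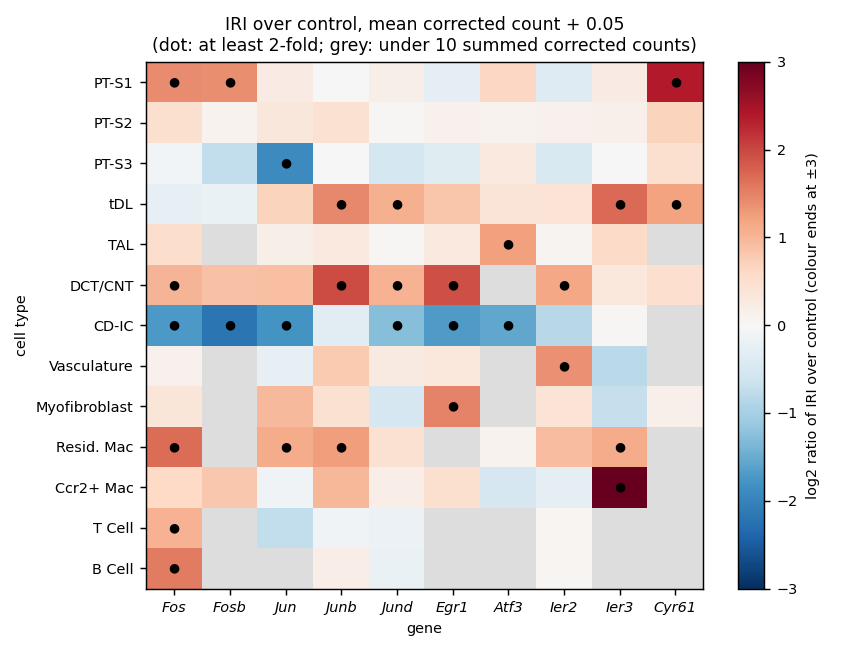
Log2 ratio of IRI over control, on the scale of log2 (mean corrected count + 0.05), for each measured member and cell type pair; types are rows, members columns, dots mark at least 2-fold and the colour ends at 3. CD-IC holds 6 of the 7 lower calls, from -2.19 for Fosb to -1.27 for Jund, and Ier3 in Ccr2+ macrophages is the highest value at 3.34.

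In PT-S1, the first segment of the proximal tubule, 3 of 10 members were called higher and 0 lower, beside 0.675% and 0.424% of all genes measured there. They were Cyr61 (log2 ratio 2.38), Fos (1.42) and Fosb (1.39), while Jun (0.25), Jund (0.17) and Junb (-0.02) were near 0. Members of the same factor, AP-1, thus differed unequally. The submitters divided PT-S1 into clusters 5, 6 and 27, formed with these genes among those used, so differences between clusters are a description. Cluster 5 held 83.9% of the control's and 92.9% of the IRI member UMIs of PT-S1. Within it, Fos was 0.908 and 2.65 UMIs per 10000, Fosb 0.386 and 1.42, and Cyr61 0.405 and 3.16. Jun in the same cells was 5.86 and 6.25, a ratio of 1.07 (0.985 to 1.15). In cluster 6 all members together were 2.98 and 3.26, and Cyr61 was 0.0235 and 0.234, from 3 and 39 UMIs.

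Depth moved with the Fos difference in PT-S1. Cells of cluster 5 had median depths of 5251 UMIs in the control and 7026 in IRI, and mitochondrial shares of corrected counts of 18.8% and 24.2%. Among PT-S1 cells of 1000 to 3000 UMIs, Fos was 0.231 in the control and 0.126 in IRI, from 6 UMIs in each. From 3000 to 6000 UMIs it was 0.372 and 0.847, and from 6000 upward 0.614 and 2.47. Cyr61 was higher in IRI in each of these bands, at 0.116 and 0.862, 0.320 and 1.47, and 0.163 and 2.70. Cluster 5 made up 13.1%, 38.8% and 85.0% of the IRI cells in these bands and 25.4%, 52.5% and 51.0% of the control's, and the parts of depth and cluster in the Fos difference were not tested apart.

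**Figure D4:**
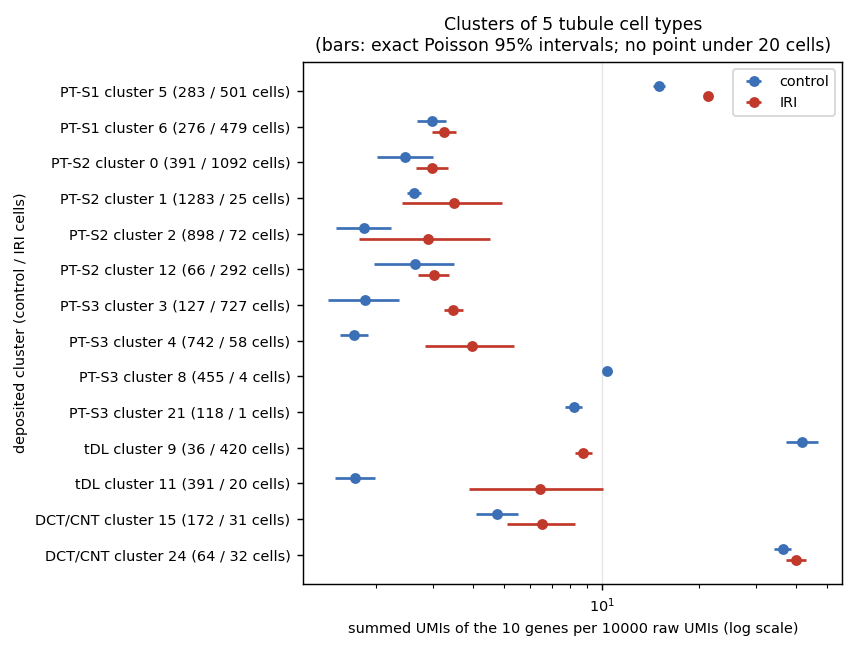
Summed level of the 10 members in the submitters' clusters within the S1 to S3 segments, tDL and DCT/CNT, in UMIs per 10000 raw UMIs on a log axis with 95% Poisson intervals, for the control and the IRI library. In PT-S3, clusters 3 and 4 are higher in IRI (3.47 against 1.85 and 3.96 against 1.71), and cluster 8, nearly all control, lies at 10.4.

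PT-S3, the last segment, stood on the other side: 0 of 10 members were called higher and 1, Jun at -1.90, lower, beside 1.09% and 2.34% of all genes there. Summed members were 7.02 UMIs per 10000 in the control and 3.59 in IRI (ratio 0.512, 0.477 to 0.549). The libraries filled different clusters of S3, formed with these genes among those used. A difference in clusters and a difference in level cannot be told apart here. Cluster 8 (455 control cells against 4 in IRI) and cluster 21 (118 against 1) had 10.4 and 8.19 in the control and held 72.8% and 18.5% of its member UMIs in S3. Within the clusters with more cells of both libraries the direction turned: 1.85 and 3.47 in cluster 3 (ratio 1.88, 1.46 to 2.46), and 1.71 and 3.96 in cluster 4 (2.32, 1.64 to 3.2). Jun itself was 0.289 and 0.431 in cluster 3 and 0.264 and 0.483 in cluster 4, and its log2 ratio over S3 was -0.07 in cells of 1000 to 3000 UMIs. Cyr61 in cluster 3 was 0 in 127 control cells (interval up to 0.107) and 0.575 in 727 IRI cells (0.483 to 0.678). In PT-S2, 0 of 10 members were called in either direction (0.234% of all genes higher, 0.996% lower).

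Pooled over the 3 segments, the summed members were 5.28 UMIs per 10000 in 4827 control cells and 9.44 in 3261 IRI cells, and 0.66 higher in IRI as a log2 ratio of corrected means. Cyr61 (1.67) and Fos (1.23) were the 2 of 10 members called higher, beside 0.410% of all genes, and 0 were called lower, beside 0.762%. With the 3 segments weighted equally the log2 ratio was 0.23, and with clusters of at least 100 cells in each library alone it was 0.15.

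Intercalated cells of the collecting duct, which secrete acid or base, held 6 of the 7 pairs called lower in IRI. Of 9 measured members there, 6 were called lower and 0 higher, beside 7.07% and 5.88% of all genes: Fosb (-2.19), Jun (-1.80), Fos (-1.72), Egr1 (-1.70), Atf3 (-1.57) and Jund (-1.27). Ier3 was 0.949 UMIs per 10000 in the control and 1.27 in IRI. Summed members were 38.9 and 12.9 (ratio 0.332, 0.289 to 0.380), from 57 and 55 cells whose median depths were 2928 and 2923 UMIs. Few cells carried most of this RNA. Cells with at least 8 of the members held 63.3% of the control's member UMIs (6 cells) and 64.1% of those in IRI (3 cells). Cells with at least 3 members made up 31.6% of the control cells (19.9 to 45.2) and 23.6% in IRI (13.2 to 37.0). Among the 39 control and 45 IRI cells of at least 1000 UMIs, each thinned to 1000, these shares were 25.4% and 6.03%. The median cell among them had 8.24 member UMIs per 10000 in the control and 5.96 in IRI. The mitochondrial share was 26.7% in the control and 24.8% in IRI, and the heat shock gene Hspa1a averaged 0.140 and 0.0545 corrected counts; their parts were not tested.

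DCT/CNT cells reabsorb sodium and calcium under hormonal control, and 5 of 9 measured members were called higher there and 0 lower, beside 2.22% and 4.78% of all genes. They were Junb (1.95), Egr1 (1.94), Ier2 (1.16), Jund (1.05) and Fos (1.02). Cluster 24, with most of the RNA, made up 27.1% of control and 50.8% of IRI cells of this type. Within it the summed members were 36.3 and 39.9 UMIs per 10000 (ratio 1.10, 1.000 to 1.21), Junb was 1.34 and 4.67 (ratio 3.48), and Ier3 was 22.2 and 15.1 (ratio 0.678, 0.589 to 0.779). Summed over this cluster, Junb and Ier3 thus stood on opposite sides of 1, which does not show both in the same cells. Of the type's 93 IRI Junb UMIs 33 came from 1 cell, and of its 732 control Ier3 UMIs 69 came from 1 cell. Over the alternatives the Junb log2 ratio of the type lay between 0.85 and 2.25. Of the 52 Fos UMIs of IRI cells in this type 19 came from 1 cell, and without the 5% of cells with the most member UMIs the Fos log2 ratio was -0.09.

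In tDL cells 4 of 10 members were called higher and 0 lower, beside 4.96% and 6.39% of all genes: Ier3 (1.70), Junb (1.43), Cyr61 (1.21) and Jund (1.06). Ier3 was 0.124 and 1.01 UMIs per 10000, and was found in 8 of 427 control cells and 60 of 440 IRI cells. Of the 94 Cyr61 UMIs in IRI 37 came from 1 cell. Fos ran the other way, at 0.754 and 0.271, and 62 of its 91 control UMIs came from 1 cell. The libraries' tDL cells lay in different clusters, 391 control and 20 IRI cells in cluster 11 and 36 and 420 in cluster 9, so the cells compared also differ in cluster. The summed level in cluster 9 was 41.8 in the control and 8.77 in IRI, against the direction of the type as a whole, and 2 control cells with at least 8 members held 53.7% of the control's member UMIs in this type.

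Single members were called higher in further types, against the share of all genes called higher in each: Atf3 in TAL (1.23, 1 of 8 members, 1.05%), Ier2 in vasculature (1.36, 1 of 7, 1.56%), Egr1 in myofibroblasts (1.48, 1 of 8, 6.22%), and Fos in B cells (1.55, 1 of 4, 9.10%) and T cells (1.04, 1 of 5, 2.88%). No member was called lower in these 5 types, where 2.29%, 4.37%, 19.9%, 4.79% and 3.37% of all genes were. Some of these calls rest on few UMIs: Fos in B cells was 5 UMIs in the control and 46 in IRI, and in T cells 7 and 31. Without the 5% of cells with the most member UMIs, Egr1 in myofibroblasts was at 0.03 and Atf3 in TAL at 0.46, and in cells of 1000 to 3000 UMIs Ier2 in vasculature was at 0.33. For Fos in T cells the interval of the ratio, 0.865 to 5.39, held 1.

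Among macrophages, the members differed by subset. In Ccr2+ macrophages, which derive from monocytes, 1 of 9 members, Ier3 (3.34), was called higher and 0 lower, beside 12.5% and 6.51% of all genes; Junb stood just under 2-fold at 0.99. In resident macrophages 4 of 7 were called higher and 0 lower, beside 6.61% and 3.27%: Fos (1.68), Junb (1.25), Jun (1.12) and Ier3 (1.12). Of the 55 Ier3 UMIs of these IRI cells 36 came from 1 cell, and of the 69 Fos UMIs 29. With the 3 subsets pooled, the summed level was 29.5 UMIs per 10000 in 326 control cells and 29.7 in 542 IRI cells (log2 ratio 0.08 of corrected means). This near equality was made of opposite parts. Ier3 (3.18) was the 1 of 10 called higher, beside 2.46% of all genes, and Jun (-1.32) and Cyr61 (-1.24) were called lower, beside 158 of 7893 genes (2.0%). Cx3cr1+ cells were 106 in the control and 19 in IRI and Ccr2+ cells 32 and 217, so the pooled ratios compare different mixes of subsets. Among cells of at least 1000 UMIs the pooled log2 ratio turned to -0.36, and without the 5% of cells with the most member UMIs it was 0.50.

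Over the whole libraries the members made up 7.05 UMIs per 10000 in the control and 13.8 in IRI, a ratio of 1.96. The cell types made up different parts of the libraries. With the IRI level of each type weighted by the control's mix of UMIs, which leaves out the injured proximal tubule cells that the control lacks, the sum was 7.34 and the ratio 1.04. Fos went from a ratio of 3.76 to 1.25, Junb from 3.83 to 1.46 and Jun from 1.25 to 0.701 under this weighting. Cyr61 kept the highest ratio, 5.30 before and 2.94 after. In IRI, Ccr2+ macrophages gave 9.79% of all UMIs but 25.8% of member UMIs, and 45.6% of Fos, 44.2% of Junb and 46.4% of Atf3. Neutrophils gave 0.961% of all UMIs and 7.10% of member UMIs. PT-S1 gave 59.7% of Cyr61, 65.0% of Jun and 68.5% of Fosb in IRI, while PT-S3 gave 50.2%, 46.1% and 46.8% in the control. In the control, DCT/CNT gave 59.2% of Ier3 from 2.79% of all UMIs. The counts are not divided by gene length, so sums weight each gene by its own abundance; Jund made up 36.8% of the member UMIs in the control and 24.1% in IRI.

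**Figure D5:**
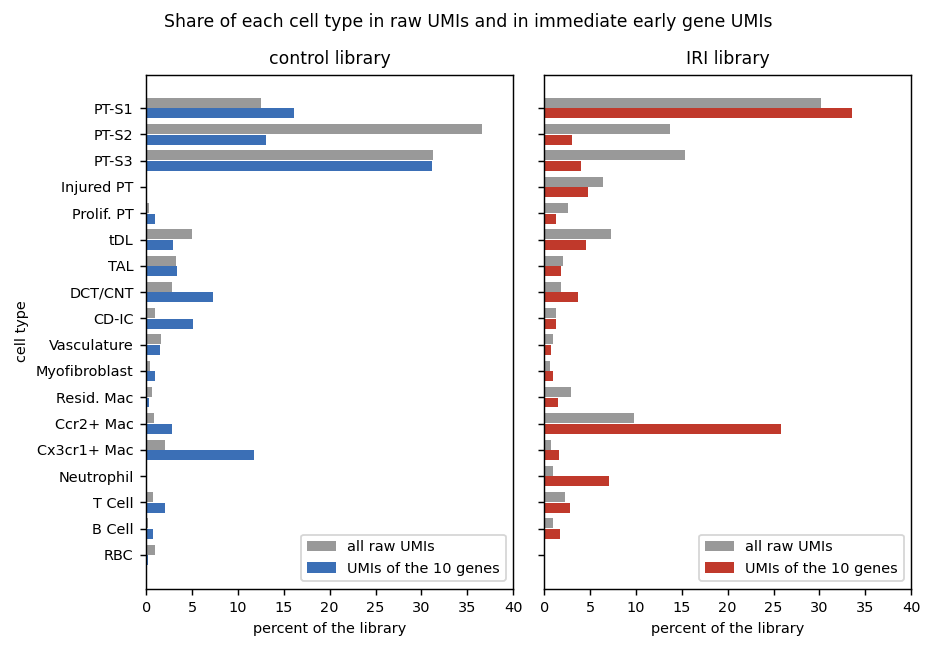
Percent of each library's raw UMIs (grey bars) and of its UMIs of the 10 members (coloured bars) that came from each cell type, for the control on the left and IRI on the right. Ccr2+ macrophages stand at 9.79% and 25.8% in IRI, and PT-S2 at 36.6% and 13.0% in the control.

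Single cells with many of the members at once were rare and deep. At least 8 of the 10 were found in 28 control cells (0.425%), which held 10.3% of the control's member UMIs, and in 86 IRI cells (1.66%), which held 4870 of the 23180 in IRI. Of the IRI cells 43 were Ccr2+ macrophages and 22 PT-S1. Their median depths, 8188 and 9018 UMIs, were above those of the libraries (2344 and 1888.5), and the part of depth was not tested. Of the 4653 control and 3615 IRI cells of at least 1000 UMIs, each thinned to 1000, 3.59% and 9.60% had at least 3 members. By type, the share was 80.1% in IRI neutrophils, 36.4% in control Cx3cr1+ macrophages, and 5.11% and 10.2% in PT-S1 of control and IRI. Fos and Jun, the partners in AP-1, were often found together in macrophages and in the proximal tubule, and few T cells and vascular cells with Fos were at hand. In macrophages of at least 1000 UMIs, 78.0% of control cells with Fos also had Jun, against 20.3% of those without Fos; in IRI the shares were 57.1% and 22.8%. In the proximal tubule they were 63.0% and 19.9% in the control, and 71.2% and 16.5% in IRI. In T cells they were 16.7% (1 of 6 cells) and 15.4% in the control, and 22.2% (4 of 18) and 11.4% in IRI. In vasculature they were 40.0% (2 of 5) and 23.0%, and 50.0% (2 of 4) and 18.4%. The macrophage and proximal tubule shares pool subsets or segments that differ in the level of both genes. Macrophages with Fos were deeper than those without (medians 4903 and 3712.5 UMIs in the control, 7439 and 2666 in IRI). So were proximal tubule cells with Fos (7247 and 4260 in the control, 7317 and 2842.5 in IRI).

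In the proximal tubule, where 0.410% of all genes were called higher and 0.762% lower, the other lists of the pathway held few calls. Of 28 further immediate early genes measured there 1 was called higher, Klf6 (log2 ratio 1.18), and 0 lower; Sgk1 was at 0.84, Errfi1, a brake on EGF receptors, at -0.79 and Cebpb at -0.61. Of 18 feedback inhibitors 0 were called, with Zfp36l1 at 0.81, the mRNA-destabilising Zfp36 at -0.62 and the MAP kinase phosphatase Dusp1 at -0.47. None of 27 upstream signalling genes, 9 leucine zipper partners, 13 other YAP targets and partners and 16 heat shock chaperones was called (median log2 ratios -0.02, 0.04, 0.12 and 0.01, beside -0.01 over all genes). Of 10 tubule injury genes 3 were called higher, led by Spp1 (osteopontin) at 4.51. The medians of the further immediate early genes and of the feedback inhibitors were 0.12 and 0.05, and that of the members 0.32.

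In macrophages pooled over the 3 subsets, more genes were called (2.46% higher, 2.0% lower), and the same lists held calls in both directions. The control had 106 Cx3cr1+ and 32 Ccr2+ cells and IRI 19 and 217, so these ratios compare different mixes of subsets. The part of the mix in them was not tested. Of 28 further immediate early genes 4 were called higher and 2 lower, with Cebpb at 2.18, Klf6 at -1.41, Nr4a1 at 1.16 and Errfi1 at -1.16. Of 15 feedback inhibitors 2 were higher and 1 lower: Socs3, an inhibitor of cytokine signalling, was at 1.73, Dusp5 at 1.19 and Dusp1 at -1.26, with Nfkbiz at -0.77. Of 14 chaperones 1 was lower, Hspa1a at -1.88, and of the 4 measured in the YAP list Birc5, a gene of dividing cells, was at 1.86 and Axl at -1.22. Of 20 upstream genes 0 were called, and of 10 leucine zipper partners 1 was higher. Of 7 tubule injury genes 3 were higher, among them Spp1 at 3.76 and Cdkn1a at 1.74. The heat shock chaperones, which dissociation also induces, summed to 6.85 corrected counts per cell over the control and 7.02 over IRI.

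Across 31 means of a cell type in a library, the genes whose level most resembled the summed members were Btg2 (Pearson r 0.93), Ccnl1 (0.90), Ppp1r15a (0.88), Rbm39 (0.85) and Pnrc1 (0.85), out of 7714 genes with a mean of at least 0.1 in some type. Btg2, an antiproliferative early gene, was also nearest to Fos (0.87) and Ier2 (0.94). Junb was nearest to Btg1 (0.94), Atf3 to Csf2ra (0.87), Egr1 to Nfe2l2 (0.78), Jund to Clk1 (0.88) and Jun to Ddx3x (0.77). Fosb had no close match (Eif3j1, 0.65), Ier3 was nearest to Ltc4s (0.81) and Cyr61 to Cpe (0.80). Among the members themselves Ier2 and Junb had r 0.92 and Atf3 and Egr1 0.87, whereas Cyr61 and Junb had -0.13. These points share 2 libraries and differ in depth, and the values describe likeness of distribution only.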

How the data were processed

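RNA of single cells was analysed in 1 control and 1 IRI library. Cell Ranger 3.0.0, Seurat 3.2 and build mm9 are named in the submitters' processing notes. The authors deposited depth-corrected counts (a score in whole numbers, SCTransform-like), their natural log after adding 1, residuals of variable genes (a score), and a table of cell types and clusters, per the file headers and values. That table had no separators and was split by matching totals (1581 of 11759 cells had more than 1 possible split). Raw counts were assumed when the design was fixed; since the values were corrected, means were compared without a count model.

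UMI counts of the members were recovered from the residuals: 12764 of 12764 checked values were whole within 0.05, and 393 at the residuals' bound came from the corrected count. The model gave back 99.97% of deposited corrected counts; it used a covariate read from 150 rare genes (r 0.90 with the mitochondrial share). Raw depth was 271 to 24680 UMIs per cell. Intervals are exact Poisson or conditional and, like floors of 3 UMIs, cover counting error only. On simulated data at least 99.957% of values per member were recovered in 11759 cells. With 200 of 11071 proximal tubule genes changed 2-fold, 99.5% had the right direction, but the median size was 0.32 instead of 1 on the log2 scale.

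Means were compared as log2 (mean + 0.05), for genes with 10 summed corrected counts and types with 20 cells per library. Named genes were all members, the 4 genes of largest absolute ratio per list with a mean of at least 0.1, and the 3 genes most like each member (5 for the sum). Genes singled out beyond this were chosen after their values were seen. Members and lists were chosen with earlier results of these data known. Doublets were not called. Alternatives covered pseudocount, scaling, depth, fold limit and clusters. Python 3.11.15, numpy 2.4.6, scipy 1.17.1, pandas 2.3.3 and matplotlib 3.10.9 were used.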

Additional observations from a re-analysis of the deposited data

Results flagged for a closer look

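In 6 members the log2 ratio of IRI over control was past 2-fold in opposite directions in 2 cell types. Fos was at 1.68 in resident macrophages and -1.72 in CD-IC, and Fosb at 1.39 in PT-S1 and -2.19 in CD-IC. Jun was at 1.12 in resident macrophages and -1.90 in PT-S3. Jund was at 1.06 in tDL and -1.27 in CD-IC, Egr1 at 1.94 in DCT/CNT and -1.70 in CD-IC, and Atf3 at 1.23 in TAL and -1.57 in CD-IC. Several of these values were unstable. The higher values stayed past 2-fold in 6 of 7 alternatives for Fos, 7 of 9 for Fosb and 4 of 7 for Jun. For Jund it was 7 of 10, for Egr1 8 of 9 and for Atf3 7 of 9. Jun in resident macrophages came from 4 control UMIs, and Jun in PT-S3 reached -0.07 in 1 alternative. Atf3 in TAL came from 5 control UMIs, all in 1 cell. With 1 library per group none of these differences was tested. CD-IC was the lower type in 5 of the 6.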

How the results depend on the processing

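The log2 ratio of the summed members in the proximal tubule, 0.66, stayed above 0 under each alternative. It was 0.58 with a pseudocount of 0.2, 0.70 with trimmed-mean scaling, 0.85 in cells of at least 2000 UMIs and 0.23 with the 3 segments weighted equally. Alternatives chosen after seeing the data gave 0.84 with recovered UMIs, 0.46 in cells of 1000 to 3000 UMIs, 0.54 without the 5% of cells with the most member UMIs, and 0.15 with clusters of at least 100 cells in each library. In macrophages, 0.08 became 0.23 with trimmed-mean scaling, 0.16 as a mean of cell proportions, 1.41 in resident cells alone, and, in added alternatives, 0.61 in Ccr2+ cells alone, 0.01 with recovered UMIs and 0.50 without the top 5% of cells. It turned to -0.36 in cells of at least 1000 UMIs, -0.17 from 2000 UMIs and -1.67 from 1000 to 3000 UMIs. The 22 higher pairs became 5 with a pseudocount of 0.2, 34 at a 1.5-fold and 6 at a 3-fold limit, 38 with recovered UMIs and 7 in cells of 1000 to 3000 UMIs. The 7 lower pairs became 12 at 1.5-fold, 12 with clusters in place of types, 17 with recovered UMIs and 1 in cells of 1000 to 3000 UMIs. Of the 29 pairs called past 2-fold, 2 turned sign: Fos in PT-S1 was at -0.41 in cells of 1000 to 3000 UMIs, and Fos in DCT/CNT at -0.09 without the top 5% of cells. Of the 77 pairs not called, 28 turned sign in at least 1 alternative. Jun in PT-S3 was at -0.07 and Ier2 in vasculature at 0.33 in cells of 1000 to 3000 UMIs, and Egr1 in myofibroblasts at 0.03 and Atf3 in TAL at 0.46 without the top 5% of cells. Lower calls of Fos, Fosb, Jun, Egr1 and Atf3 in CD-IC, and higher calls of Cyr61 in PT-S1, Ier3 in Ccr2+ macrophages and Fos in B cells, stayed past 2-fold in each alternative that gave a value. A pseudocount or a fold limit acts by construction; for the others the cause was not tested. No paired analysis was possible because each group had 1 library. Leaving out a replicate was not possible for the same reason.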
